A study of Zea mays with 157 samples.

Results

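The leaf-only circRNAs of the maize inbred line B73 are 325 of the 53558 circular RNAs listed for that line, or 0.607%. They were chosen by their B73 values: each was above 0 in at least 3 of the 11 B73 leaf libraries and at 0 in the other 15 libraries. They lie on 250 host genes, out of 11678 genes that host any listed B73 circRNA. Their B73 circRNA levels are therefore given as a description with no test, and the tests below use libraries that the choice did not touch, namely host mRNA in 3 lines and circRNA in F1 and Mo17.

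A circular RNA forms when a splice donor is joined backwards to an acceptor that lies upstream in the same transcript, a reaction called back-splicing. The product has no free ends, which protects it from exonucleases, and a gene can give many circles that share an end. Leaves are the photosynthetic organs of maize; the ear leaf is the blade at the node that bears the ear, and husk leaves wrap the ear.

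The study profiled circRNA and mRNA in B73, in the inbred line Mo17 and in the F1 hybrid of B73 by Mo17, with 26 tissues in each line and no treatment or transgene. All plants shared a greenhouse with 12 h of light a day at 25 °C. The leaf group holds husk leaf, ear leaf, the third leaf at stage V3, and the first leaf and the topmost leaf at V3 and the tip and the base of the stage 2 leaf at V5, these last each as a library with the suffix L and another with the suffix N, which the labels do not explain. The other group holds shoot apical meristem at V1, V3 and V4, ear at 2 mm, 5 mm and 1 cm, inflorescence, tassel at 2 mm and 1 cm, primary root at V1 and at 6 days, stem and internode at V6, and embryo and endosperm at R2. Each library pooled 3 extractions of 5 to 10 plants each, so a tissue has 1 library per line and RNA class. The p-values below therefore rest on the spread between tissues, and the L and N libraries of a leaf position are not independent plants of a replicate design. These are whole organs, so fewer cells of a type and less RNA per cell cannot be told apart.

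CircRNA levels were deposited as RPM, a read count scaled to the size of its library. Taking the smallest value above 0 in a library as 1 read implies 10508676 to 15895757 reads for the B73 leaf libraries, with a median of 12699843. For the other B73 libraries it implies a median of 17023532 reads. That is an assumption, since the RPM values did not resolve into whole reads. The read limits and the values at 1 read given below rest on it. A B73 leaf library held 3078 to 5040 circRNAs and the other B73 libraries held 2683 to 11051. A count of 0 allows up to 3 reads, which is 0.139 to 0.255 RPM in a single B73 library outside leaf and 0.0120 RPM over all 15 together, for counting error only. The lowest leaf mean of a member was 0.0187 RPM, which the rule keeps above the joint limit, and 14 leaf means were above the highest limit of a single library.

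Most members were rare. Of the 1348 values above 0, 767 or 56.9% stood at 1 read, within 1% of that library's smallest value above 0. A total of 186 members were found in exactly 3 leaf libraries, 62 in 4, 23 in 5, 19 in 6, 7 in 7, 8 in 8, 7 in 9, 6 in 10 and 7 in all 11. The median of the 325 leaf means was 0.0308 RPM; 37 members reached a mean of 0.1 RPM and 4 reached 1 RPM. Just outside the rule stood 798 circRNAs found in 2 leaf libraries and nowhere else, with a median leaf mean of 0.0151 RPM, and 291 found in 3 or more leaf libraries and in 1 other library, with a median leaf mean of 0.0303 RPM. Members found in exactly 3 leaf libraries had a median leaf mean of 0.0240 RPM.

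The number of members found in a B73 leaf library ran from 66 in the N library of the leaf base to 159 in the L library of the first leaf and in the third leaf. Their summed level ran from 25.7 RPM in the N library of the leaf base, through a median of 44.6 RPM, to 55.5 RPM in the ear leaf. Members made up 2.36% of all circRNA signal in husk leaf and 4.95% in ear leaf, the lowest and the highest share. Of the members, 169 were found in husk or ear leaf and 156 in neither. Members in a tip library but in no base library numbered 125, those in a base library but in no tip library 53, and those in both 86. Among all B73 circRNAs the same tallies were 3563 for tip without base and 3579 for base without tip. By suffix, 39 were found in an L library and no N library, 37 the other way, and none was found in all 4 libraries of a suffix and in no library of the other.

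**Figure D1:**
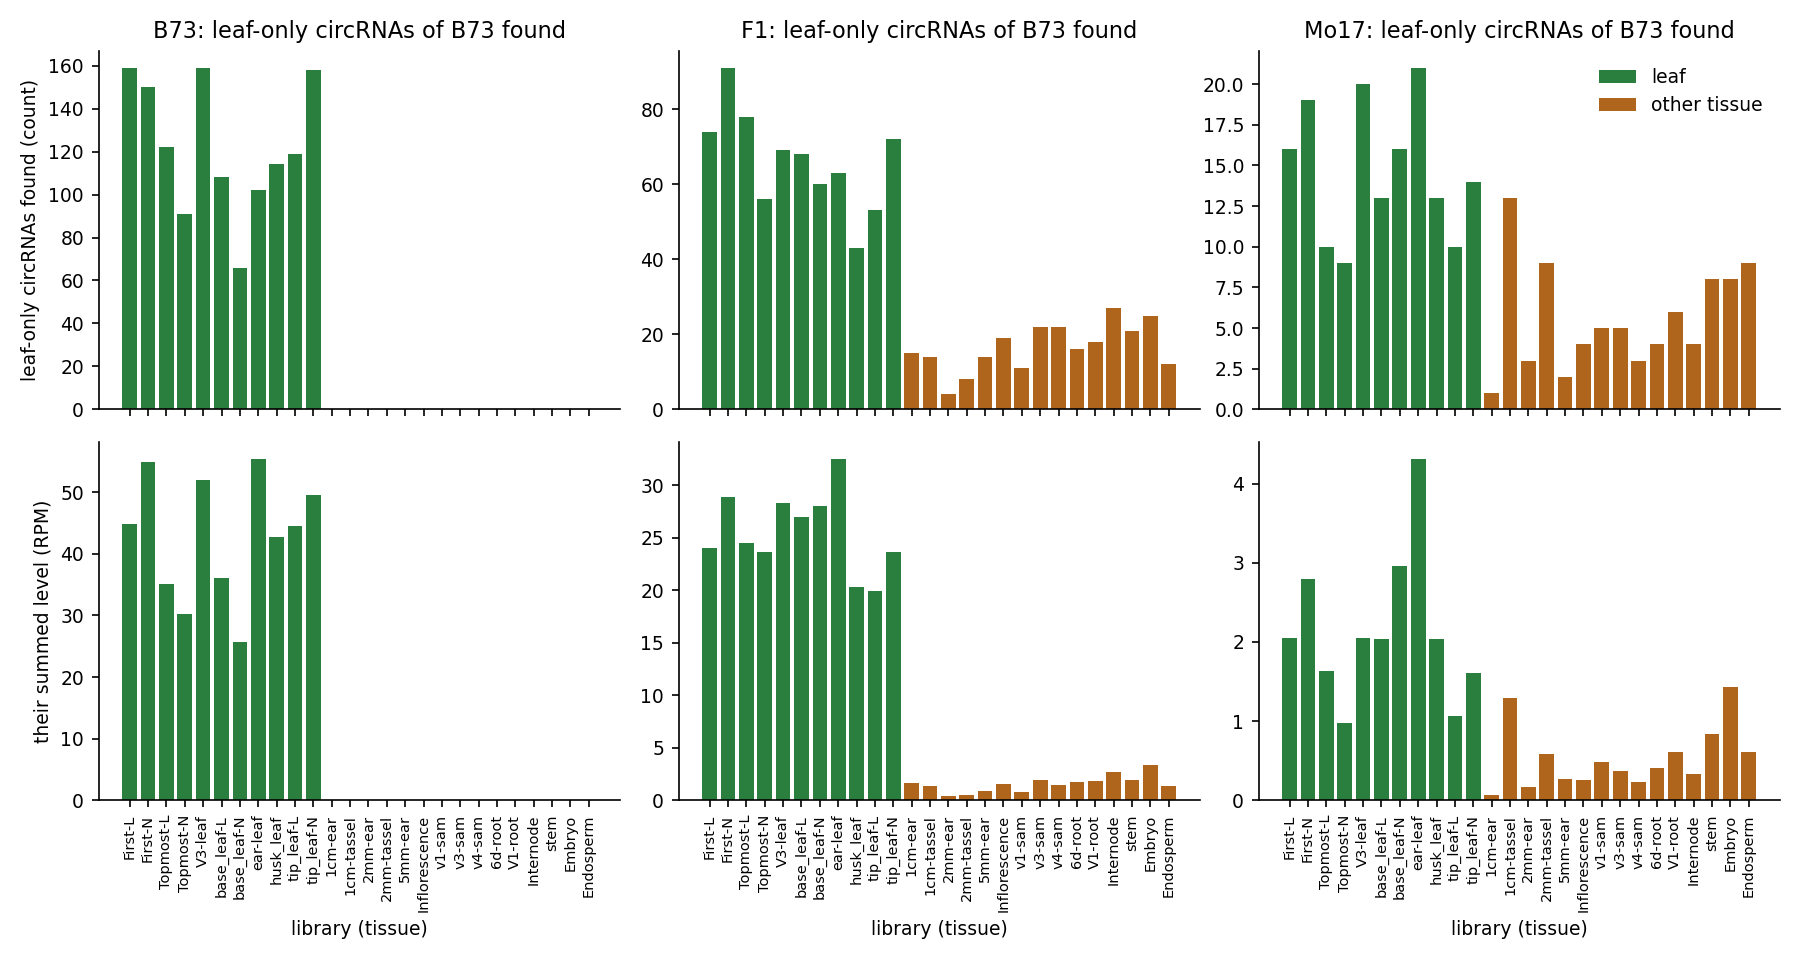
Bars give, for each library of B73, F1 and Mo17, the number of leaf-only circRNAs of B73 found above 0 (upper row, count) and their summed level (lower row, RPM); green bars are leaf and brown bars are other tissues, and each panel has its own scale. The rule fixes the B73 zeros; in F1 the leaf libraries held 43 to 91 members and the others 4 to 27, and in Mo17 9 to 21 against 1 to 13.

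The members stemmed from all 10 chromosomes, with 57 or 17.5% on chromosome 3, against 11.4% of all B73 circRNAs, 55 or 16.9% on chromosome 1, against 15.2%, and 20 or 6.15% on chromosome 2, against 11.4%; none was listed on the mitochondrial or plastid genome. Of the 57 on chromosome 3, 14 were circles of 1 host, Zm00001d044099, so members are not independent counts of a chromosome. Positions are on B73 RefGen_v4, the build named in the submitters' processing notes. Their span from the first to the last base in the genome had a median of 672 bp with quartiles of 381 and 1273 bp, against 1053 bp with quartiles of 525 and 2210 bp for all B73 circRNAs. The shortest spanned 126 bp and the longest 17071 bp. Of the 325 members, 264 or 81.2% shared a start or an end with another B73 circRNA of the same host, against 74.8% of all B73 circRNAs. Hosts of members listed a median of 5 circRNAs, against 3 for all B73 hosts, and the shares were not matched for this. A total of 163 members shared a start or an end with a circRNA that was found outside leaf.

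Host genes carried from 1 to 20 members. There were 222 hosts with 1 member, 19 with 2, and 9 with 3 or more, which together held 65 members. On 183 hosts another circRNA was found outside leaf, and on 67 none was. The hosts are named by identifier here and no function is given, since the files and the reference table pair no symbol with them. For the same reason the tissue labels were not checked against marker genes.

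The 8 members with the highest leaf means came from 6 hosts. The first was Zmcirc037607, which spans 273 bp on the minus strand at chr3:219080583-219080855 within Zm00001d044099. It stood at 22.6 RPM in husk leaf, 36.1 in ear leaf, 16.8 and 21.5 in the L and N libraries of the first leaf, 13.4 and 12.9 in the topmost leaf, 24.9 in the third leaf, 21.8 and 20.5 at the leaf tip, and 13.3 and 10.5 at the leaf base. It was thus highest in ear leaf and lowest at the leaf base, with a mean of 19.5 ± 7.3 RPM (SD, n = 11). This 1 circle made up 37% to 65.1% of the summed RPM of all members in a B73 leaf library.

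Zm00001d044099 gave 3 of the 8. Besides Zmcirc037607 it holds Zmcirc037606, at chr3:219079960-219080855, which ends at the same base and averaged 1.52 ± 0.86 RPM (SD, n = 11). It also holds Zmcirc047121, at chr3:219077114-219079130, which averaged 0.459 ± 0.692 RPM (SD, n = 11) and was found in 4 libraries only. In all, the gene had 14 members out of 24 circRNAs listed in B73. They used 8 starts and 5 ends, and 4 of them ended at base 219080855. The 14 members summed to 11.6 RPM at the lowest, 23.4 at the median and 39.7 at the highest leaf library. Only 1 circRNA of this gene was found outside leaf, and its 24 circRNAs averaged 26.0 RPM over leaf and 0.00969 RPM over the other tissues.

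The next members each came from a gene of their own. Zmcirc037327, a 270 bp circle at chr8:150931113-150931382 on Zm00001d011454, stood between 0.383 RPM in husk leaf and 3.77 RPM in the third leaf, with a median of 2.09. Zmcirc007730, at chr6:10038926-10039731 on Zm00001d035212, ran from 0.842 RPM in husk leaf, through 1.62, to 3.22 RPM in the N library of the leaf tip. Both were thus lowest in husk leaf.

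Zmcirc037386 showed the opposite order. This 995 bp circle at chr5:30848119-30849113, on Zm00001d014055, stood at 4.90 RPM in husk leaf and between 0.190 and 0.777 RPM in the other 10 leaf libraries. It was the only circRNA of its gene listed in B73. Its host mRNA was likewise highest in husk leaf, at 213 scaled units (the deposited value divided by a size factor of its library) against 2.13 to 18.2 in the other leaf libraries.

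The last of the 8 were lower. Zmcirc037733 on Zm00001d000316, an unplaced contig gene, ran from 0.153 RPM in husk leaf to 1.57 RPM in the third leaf around a median of 0.571. Zmcirc038011, at chr10:105656629-105657473 on Zm00001d025129, ran from 0.0718 RPM in the L library of the leaf base, through 0.414, to 1.10 RPM in husk leaf.

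**Figure D2:**
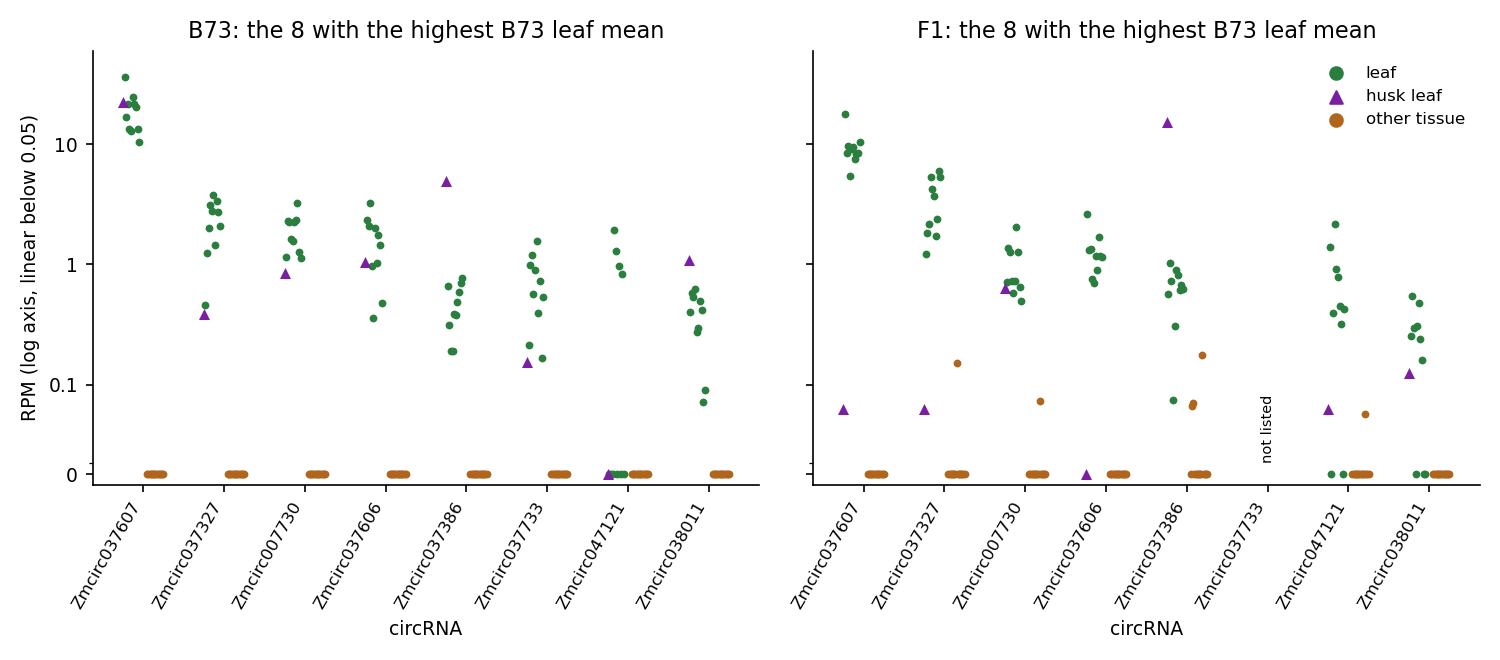
Each point is 1 library of B73 (left) or F1 (right), on a log axis in RPM that is linear below 0.05, for the 8 members with the highest B73 leaf mean; green is leaf, purple triangles mark husk leaf and brown is other tissue. In the F1 husk leaf library Zmcirc037607 stood at 0.0624 RPM, against 5.49 to 17.8 RPM in the other F1 leaf libraries, while Zmcirc037386 stood at 15.2 RPM there.

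Zm00001d038163 on chromosome 6 had the most members, 20, all of low level, with leaf means of 0.0195 to 0.0952 RPM. It is also the host with many other circles: 255 were listed in B73, of which 223 more were found in leaf only but in fewer than 3 libraries and 12 were found outside leaf. Its members were short, 273 to 755 bp, and 15 of the 20 started within 1000 bp of the first of them, where 8 shared the start at base 150031466. The summed members stood at 0.0713 RPM at the lowest, 0.776 at the median and 1.44 at the highest leaf library.

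Zm00001d013798 on chromosome 5 had 11 members, and none of its 21 listed circRNAs was found outside leaf. Its members were long, with a median of 5727 bp, and include the 17071 bp circle that was the longest member. Their summed level was 6.70 and 4.21 RPM in the L and N libraries of the leaf base, 1.83 in ear leaf, 1.59 and 0.975 in the topmost leaf, and at most 0.408 in the other 6 libraries. The N library of the leaf base, which held the fewest members in all, was thus among those where the members of this gene were most abundant.

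Zm00001d028471 on chromosome 1 had 5 members that summed to between 0.0766 and 1.62 RPM, and no circRNA of it was found outside leaf. Zm00001d000316 and Zm00001d018362 had 3 each. Of the other circRNAs of Zm00001d000316, 15 were found in leaf only but in fewer than 3 libraries, and 2 were found outside leaf.

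**Figure D3:**
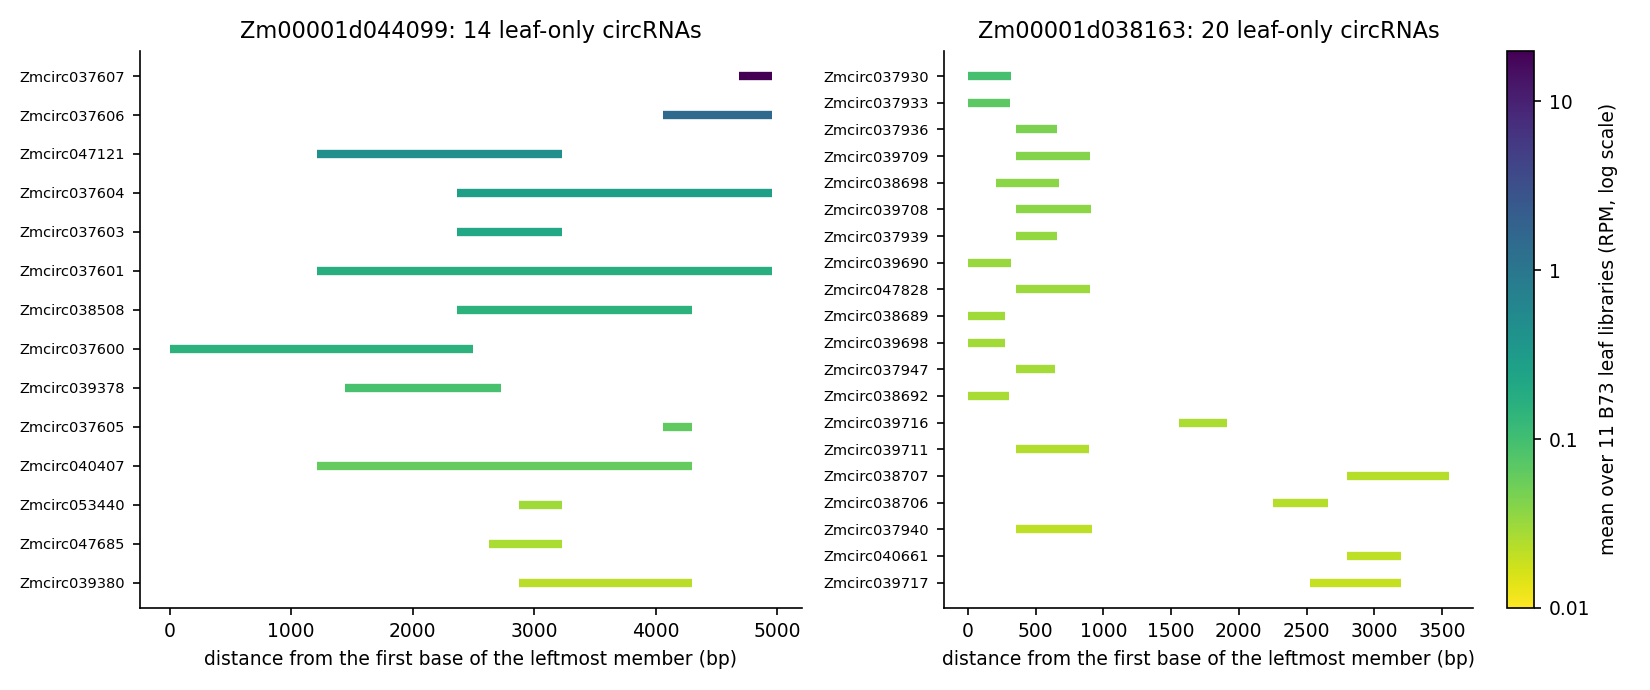
Horizontal bars give the span of each member of Zm00001d044099 (left, 14 members, minus strand) and Zm00001d038163 (right, 20 members, plus strand) as the distance in bp along the reference from the first base of the leftmost member; colour is the mean over 11 B73 leaf libraries in RPM on a log scale. The most abundant circle, at 19.5 RPM, lies at the right end of the left map, and 15 bars of the right map start within 1000 bp.

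Host mRNA was measured in separate libraries, so it shows whether the host transcript followed the same tissues. In B73, 195 of the 248 hosts tested were higher in leaf and 17 were lower, while 36 were not called (limma on log2 of scaled values plus 1, 11 leaf against 15 other libraries, Benjamini-Hochberg adjusted p under 0.05 over 24954 genes). Over all genes tested, 30.2% were higher and 35.2% lower in leaf. The hosts' median change was 2.40 on the log2 scale, against -0.08 for all genes. The scaling sets part of this split: with the values as deposited, 149 hosts were higher and 49 lower, and all genes went from 7542 higher and 8795 lower to 3997 and 14640, with a median of -0.75.

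Host transcripts were present outside leaf although the circles were at 0 there. In B73, 131 of the 250 hosts stood at 1 scaled unit or more in every other-tissue library, and 11 stood below 1 in all of them. The median host averaged 33.3 units in leaf and 6.28 outside. Hosts with no circRNA outside leaf had a median of 1.72 units outside leaf, and 62 of those 67 were called higher in leaf. Hosts with a circRNA found outside leaf had a median of 8.93 units there, and 133 of those 183 were called higher. On 105 hosts the lowest leaf value was above the highest other value, and on 2 the highest leaf value was below the lowest other value. Among hosts tested these were 104 and 2 of 248, against 6.71% and 5.20% of all genes tested.

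The hosts of the most abundant and most numerous members had large leaf differences. For Zm00001d044099 the B73 leaf values ran from 95.1 units in the N library of the first leaf, through 1437, to 3489 in the L library of the topmost leaf, and those outside leaf from 0.0787, through 0.662, to 6.30 in V1 root. The groups did not overlap, with means of 1385 ± 1041 (SD, n = 11) and 1.33 ± 1.89 (SD, n = 15), a log2 difference of 8.98 ± 0.44 (SE) and a limma adjusted p of 1.95e-15.

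For Zm00001d038163 leaf values ran from 1610, through 4041, to 8759 units, and the other values from 0.494, through 1.33, to 824. The groups did not overlap, but embryo at 824 and endosperm at 399 stood far above the remaining tissues. The log2 difference was 9.39 ± 0.90 (SE) with a limma adjusted p of 9.69e-10.

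The 3 largest rises among the hosts were these genes and Zm00001d048593 on chromosome 4, whose 1 member averaged 0.0483 RPM in leaf. Its mRNA stood at 238, 958 and 2534 units at the lowest, median and highest leaf library and at 5.63 in stem, the highest library outside leaf. Its log2 difference was 9.04 ± 0.31 (SE), with a limma adjusted p of 1.42e-18.

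The other hosts of the 8 leading members were also called higher in leaf, with log2 differences of 8.26 ± 0.30 (SE) for Zm00001d000316, 6.42 ± 0.31 for Zm00001d035212, 5.73 ± 0.49 for Zm00001d011454, 3.31 ± 0.22 for Zm00001d025129 and 2.37 ± 0.45 for Zm00001d014055. Their limma adjusted p-values ran from 5.16e-18 to 4.54e-05. Of the remaining hosts with most members, Zm00001d028471 rose by 8.04 ± 0.45 (SE) and Zm00001d018362 by 4.64 ± 0.38.

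Some hosts went the other way, although their member was found in leaf only. The 3 largest falls were Zm00001d018261, at -3.39 ± 0.66 (log2, SE), Zm00001d048741, at -1.72 ± 0.18, and Zm00001d010614, at -1.72 ± 0.29, with limma adjusted p-values of 7.24e-05, 5.11e-09 and 1.14e-05. Zm00001d018261 averaged 0.591 ± 1.10 units in leaf (SD, n = 11) and 27.1 ± 23.05 outside (SD, n = 15). Zm00001d048741 averaged 10.6 ± 3.6 units in leaf and 37.4 ± 11.9 outside, and 98 of its 107 listed circRNAs were found outside leaf. Each of these 3 hosts had 1 member, found in exactly 3 leaf libraries.

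Of the 250 hosts, 24 were called in none of the 3 lines. Among hosts tested in at least 1 line these were 23 of 249, against 26.0% of the 26556 genes listed in B73 and so tested. Of these, the 3 named by the rule were Zm00001d001913, Zm00001d001941 and Zm00001d002396, with 1 member each. Zm00001d001913 stood at 308 ± 44 units in B73 leaf (SD, n = 11) and 290 ± 87 outside (SD, n = 15), a log2 difference of 0.12 ± 0.13 (SE) that turned to -0.91 with the values as deposited and to -0.38 under quantile normalization, with limma adjusted p-values of 2.16e-05 and 0.0410. The other 2 were also called under another scaling. Zm00001d001941 was called higher under quantile normalization, at 0.61 in F1 and 0.76 in Mo17 with limma adjusted p-values of 0.0209 and 0.0114. Zm00001d002396 was called lower in B73, at -1.43 with the values as deposited and -0.68 under quantile normalization, with limma adjusted p-values of 0.000419 and 0.0302. The member of Zm00001d001913 was the only circRNA catalogued for it.

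**Figure D4:**
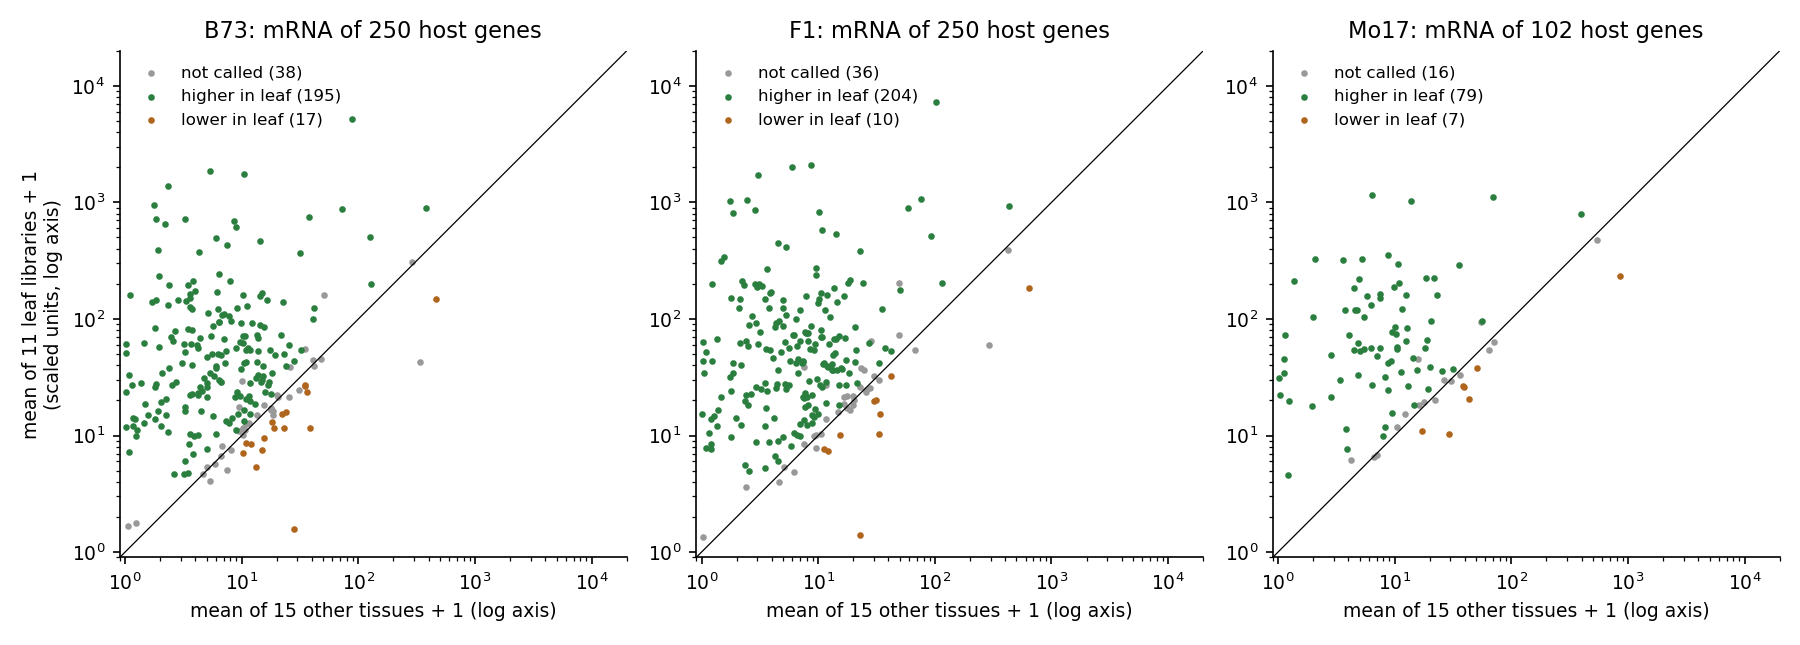
Each point is a host gene in B73, F1 or Mo17, placed by its mean mRNA over 15 other tissues (x) and over 11 leaf libraries (y), both in scaled units plus 1 on log axes; green was called higher in leaf, brown lower and grey neither or not tested. Most points lie above the diagonal of equal means, with 195 green and 17 brown points in B73.

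The same contrast was run in the other lines. In F1, 204 of 249 hosts tested were higher in leaf and 10 lower, against 28.2% and 36.4% of all 43424 genes tested. In Mo17, whose own gene identifiers could be paired for 102 hosts, 79 were higher and 7 lower, against 26.8% and 36.5% of 26204 genes. With the values as deposited these counts became 143 and 58 in F1 and 58 and 30 in Mo17, with all-gene medians of -0.9999 and -1.25 in place of -0.14 and -0.16. Of 248 hosts tested in both B73 and F1, 193 were higher in both and 10 were lower in both, and none was called in opposite directions; of all 24396 genes tested in both, 28.6% were higher and 27.6% lower in both and 37 or 0.152% were called in opposite directions. Of 101 tested in all 3 lines, 76 were higher and 7 lower in each, against 26.1% and 31.7% of the 8265 genes tested in all 3; 0 of the 101 hosts and 0.411% of those genes were called in opposite directions. The leaf values lay wholly above the others for 81 of 249 hosts tested in F1 and wholly below for 1, against 4.85% and 4.20% of all genes tested, and for 42 and 0 of 102 in Mo17, against 4.80% and 4.76%.

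The values of Zm00001d013798 differed between the lines. In B73 its mRNA stood at 0.256, 8.84 and 128 units at the lowest, median and highest leaf library and reached at most 0.578 outside leaf. In F1 the leaf values were 1.87, 7.26 and 47.1 and the highest other value was 5.95. In Mo17 the leaf values were 3.87, 5.06 and 9.96 and those outside leaf 1.53, 6.72 and 9.57. The log2 differences were 3.48 ± 0.58 (SE) in B73, 1.10 ± 0.40 in F1 and -0.06 ± 0.18 in Mo17, with limma adjusted p-values of 9.07e-06, 0.0200 and 0.802. With the values as deposited the F1 difference was -0.00085 and the Mo17 difference -1.37, and the difference between lines was not tested. The F1 call was also lost against meristem and inflorescence alone, at 0.91, and without the leaf base, at 0.79. In F1 9 of the 11 members were listed, none outside leaf. None was listed in Mo17, where only members with a paired position could be.

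Within leaf, the level of a member was set beside the mRNA of its host. The Spearman correlation over the 11 B73 leaf libraries used mRNA values as deposited, not scaled by size factors. It had a median of 0.12 over the 325 members, was positive for 215, and ran from -0.71 to 0.95. For the 54 members found in 6 or more leaf libraries the median was 0.15. These values share libraries and depth, and most members are at 0 in most leaf libraries, so they are a description and no finding. For Zmcirc037607 the coefficient was -0.04. The circle varied between 10.5 and 36.1 RPM, and the mRNA of Zm00001d044099, here in scaled units, between 95.1 and 3489. For Zmcirc037386 the coefficient was 0.68, and both circle and host peaked in husk leaf.

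The F1 husk leaf circRNA library stood apart from the other F1 leaf libraries. It listed 10288 circRNAs, against 4542 to 7579 in the others, and 43 members, against 53 to 91. Husk leaf also listed the most circRNAs among Mo17 leaf libraries, 4302 against 2242 to 3792. In B73 it listed 4961, against 3078 to 5040. In the F1 husk leaf library Zmcirc037607 fell to 0.307% of the members' RPM, while Zmcirc037386 at 15.2 RPM made up most of it. Host mRNA, measured in a separate F1 husk leaf library, was low too. Zm00001d044099 stood at 45.9 units there, against 145 to 4306 in the other F1 leaf libraries. Of 250 hosts, 148 had their lowest F1 leaf value in husk leaf. In B73, 87 of 250 hosts had theirs in husk leaf, and in Mo17 50 of 102. The share over all genes was not counted. The part of the F1 husk leaf libraries of circRNA and mRNA in the results below was measured by leaving them out. For host mRNA in F1, 207 of 249 hosts were then called higher in leaf and 10 lower, against 28.3% and 39.1% of 43014 genes tested.

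In F1, 257 of the 325 members were listed, or 79.1%, against 50.2% of all B73 circRNAs and 92.0% of other B73 circRNAs that were found in 3 or more B73 libraries. Of the 257, 131 were found in leaf only, 95 in leaf and elsewhere, and 31 only outside leaf. Thus 49.03% were found outside leaf, against 88.4% of the other B73 circRNAs listed in F1. A single read counts as found here, and 68 members were found in just 1 F1 library outside leaf. With 0.2 RPM as the limit 8.20% of 61 members were found outside leaf, against 90.4% of 5345 other circRNAs. In F1, 61 members met the full rule of 3 or more leaf libraries and 0 elsewhere, with no count over other circRNAs to set beside it.

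The F1 listing is given beside how often a member was seen in B73 leaf, with no test. Of 35 members in 7 or more B73 leaf libraries, 34 were listed in F1 and 12 of those were found outside leaf. Of 186 members in exactly 3, 130 were listed and 67 of those were found outside leaf. The mean of a member was higher in leaf than outside for 208 of the 257 and lower for 49, and the same count was not made over other circRNAs.

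An F1 leaf library held 43 to 91 members and 19.9 to 32.5 RPM of them, and an F1 library outside leaf held 4 to 27 members and 0.394 to 3.38 RPM. The ranges did not overlap. Outside leaf, the F1 libraries with most members were internode with 27 and embryo with 25, and the one with fewest was the 2 mm ear. Internode also held the most circRNAs of any kind outside leaf, 14585, and the 2 mm ear the fewest, 6323. As a share of the circRNAs found, members were 0.261% in embryo, the highest, 0.207% in V1 root, 0.185% in internode and 0.0633% in the 2 mm ear, the lowest.

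The F1 circRNA test was run on circRNAs above 0 in at least 5 F1 libraries, which 82 of the 257 listed members passed and 175 did not. Of the 82, 52 were called higher in leaf and 0 lower, against 4.98% higher and 26.2% lower among all 11874 circRNAs tested (limma on log2 of RPM plus the smallest value, adjusted p under 0.05). Many members reached the filter through leaf, 55 of the 82 being found in 5 or more leaf libraries, so the 52 are given as an account and not as support. Without the filter, 54 of all 257 listed members were called higher and 0 lower, against 0.645% and 3.07% of 79239 circRNAs. At an unadjusted p under 0.05, 59 of the 82 were higher and 1 was lower, against 6.77% and 40.4% of all circRNAs tested. Without husk leaf, 51 of 74 members tested were called higher and 0 lower, against 4.99% and 27.9% of 11435 circRNAs tested. Of the 52 called members, 31 were at 0 in every other F1 tissue and 46 were on a host that was also called higher in leaf in F1. The 52 lay on 33 hosts, and 81.9% of all member hosts tested in F1 were called higher. Neither count was made over all circRNAs called higher, so neither is read as a trait of the members.

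The 3 largest F1 changes among the called members were those of Zmcirc037607, Zmcirc037327 and Zmcirc037606. For Zmcirc037607 the F1 leaf values ran from 0.0624 RPM in husk leaf, through 8.46, to 17.8 RPM in ear leaf, and every other tissue was at 0. The mean of 8.60 ± 4.16 RPM (SD, n = 11) became 9.45 ± 3.21 (SD, n = 10) without husk leaf. The log2 difference was 6.95 ± 0.42 (SE), with a limma adjusted p of 2.00e-27, and 7.53 without husk leaf. Both depend on the added smallest value, since the other tissues are at 0. This circle passed the filter through leaf alone, so its p-value is an account and not support. Against the 3 reads that a count of 0 allows over all 15 of those libraries together, 0.0125 RPM, its leaf mean was at least 689-fold higher.

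Zmcirc037327 ran from 0.0624 RPM in husk leaf, through 2.37, to 5.99 RPM at the leaf base in F1, and was found outside leaf only in the 6-day root, at 0.152 RPM. Its log2 difference was 5.37 ± 0.40 (SE), with a limma adjusted p of 4.16e-21. Zmcirc037606 was at 0 in F1 husk leaf, with a leaf median of 1.17 and a highest value of 2.63 RPM. It was at 0 in every tissue outside leaf. Its difference was 4.23 ± 0.39 (SE), limma adjusted p 1.45e-16, and its leaf mean was at least 93.4-fold higher than that limit. Both circles had enough leaf libraries to pass the filter without the other tissues, so these p-values too are an account and not support.

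Of the other leading members, Zmcirc007730 had an F1 leaf mean of 0.952 ± 0.477 RPM (SD, n = 11), Zmcirc047121 one of 0.627 ± 0.662 and Zmcirc038011 one of 0.218 ± 0.185. All of these were called higher in leaf, with log2 differences of 4.13, 2.89 and 1.97. Each was above 0 in enough leaf libraries to pass the filter, so these calls are an account and not support. Zmcirc007730 was found outside leaf in F1 stem, at 0.0736 RPM, and Zmcirc047121 in F1 V1 root, at 0.0564 RPM. Zmcirc047121 was found in 9 F1 leaf libraries, against 4 in B73. Zmcirc037733, found in all 11 B73 leaf libraries, was not listed in F1, and none of the members of its host Zm00001d000316 was.

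Zmcirc037386 was highest in husk leaf in F1 too. It stood at 15.2 RPM there and between 0.0738 and 1.03 RPM in the other 10 leaf libraries, so that the mean of 1.95 ± 4.39 RPM (SD, n = 11) became 0.632 ± 0.278 (SD, n = 10) without it. It was also found in internode, embryo and endosperm, at up to 0.175 RPM. The log2 difference was 3.71 ± 0.41 (SE) with husk leaf and 3.29 without, both called. It too passed the filter through leaf, so these calls are not support. The mRNA of Zm00001d014055 in F1 was likewise highest there, with 255 units in husk leaf and 3.03 to 23.4 in the other leaf libraries. In both B73 and F1 this circle and its host thus peaked in husk leaf.

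The members with the highest F1 level outside leaf were Zmcirc053641, Zmcirc053269 and Zmcirc002237, each found in exactly 3 B73 leaf libraries. Zmcirc053641, on Zm00001d026056, was found in 9 leaf libraries and 11 other libraries of F1, with medians of 0.213 and 0.117 RPM and a highest value of 0.939 RPM in embryo. The groups overlapped and the log2 difference of 0.37 ± 0.43 (SE) was not called (limma adjusted p 0.496). Zmcirc053269, on Zm00001d050150, was found in 11 leaf and 9 other F1 libraries at 0.741 ± 0.322 (SD, n = 11) and 0.102 ± 0.114 RPM (SD, n = 15), and was called higher in leaf at 2.65 ± 0.39 (SE), adjusted p 4.14e-08. Zmcirc002237, on Zm00001d013083, was found in no F1 leaf library and in 3 others, with 0.248 RPM in embryo, which is too few libraries for the test.

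**Figure D5:**
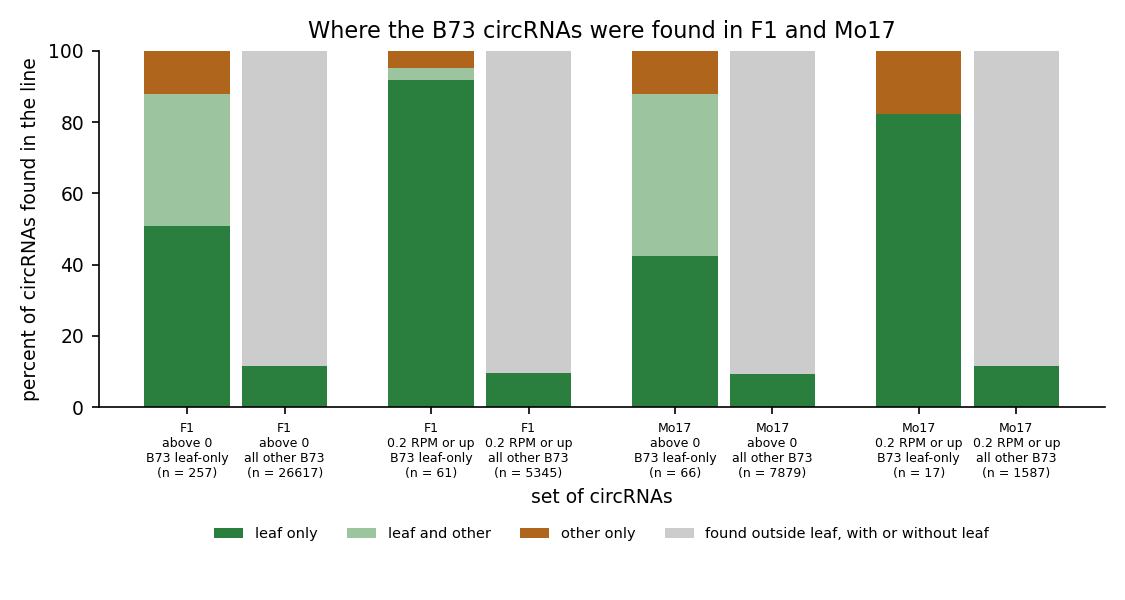
Stacked bars give the percent of circRNAs found in leaf only, in leaf and other tissues, or only in other tissues of F1 and Mo17, for the leaf-only circRNAs of B73 and for all other B73 circRNAs, of which the grey part was found outside leaf; found means above 0 or at 0.2 RPM and up. Above 0, 49.03% of the leaf-only circRNAs listed in F1 were found outside leaf, against 88.4% of the others.

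In Mo17 only members with a paired Mo17 position could be listed, so the share listed there is bounded by the pairing. A Mo17 position was paired for 83 of the 325 members, and 66 were listed in Mo17 libraries, or 20.3%, against 14.8% of all B73 circRNAs and 26.2% of other B73 circRNAs that were found in 3 or more B73 libraries. Members without a paired position were not analysed in Mo17. Of the 66, 28 were found in leaf only, 30 in leaf and elsewhere and 8 only outside leaf, so that 57.6% were found outside leaf, against 90.7% of other B73 circRNAs listed in Mo17. At 0.2 RPM the share was 17.6% of 17 members, against 88.5% of 1587 others. The full rule was met by 11 members in Mo17, again with no count over other circRNAs.

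The Mo17 test took in 21 of the 66 members, of which 7 were called higher in leaf and 0 lower, against 3.97% and 29.2% of 6644 circRNAs tested. At an unadjusted p under 0.05, 9 were higher and 0 lower, against 5.36% and 45.1% of all circRNAs tested. Of the 21, 9 were found in 5 or more leaf libraries, and 3 of the 7 called were at 0 in every other Mo17 tissue, so these calls too are an account and not support. Without the filter 10 of 66 were called higher and 0 lower, against 0.523% and 3.26% of 44552. Without husk leaf 8 were called higher and 1 lower, against 3.80% and 29.1% of 6474 circRNAs tested. The 1 called lower was Zmcirc003018, named here after its value was seen, at -0.87 (limma adjusted p 0.0468). Of the 7 called members, 6 were also called in F1, out of 11 tested in both lines; of all 4800 circRNAs tested in both, 3.71% were called higher in both, 23.1% lower in both and 0.0208% in opposite directions.

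The 3 largest Mo17 changes were those of Zmcirc007795, Zmcirc002630 and Zmcirc007731. Zmcirc007795, on Zm00001d014572, had a Mo17 leaf median of 0.163 RPM and a highest value of 0.712, and was found in 2 other libraries at up to 0.166 RPM. Its log2 difference was 2.10 ± 0.41 (SE) with a limma adjusted p of 2.65e-05, and in F1 1.62 ± 0.36. Zmcirc002630, on Zm00001d003584, had a leaf median of 0.159 RPM and a difference of 1.87 ± 0.40 (SE), adjusted p 0.000113. Both reached their highest value outside leaf in embryo. Like the Mo17 calls as a whole, these p-values are an account and not support.

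A pair of circles of Zm00001d035212 had unlike values in the lines. Zmcirc007730 was found in all 11 leaf libraries of B73 and of F1, at means of 1.81 and 0.952 RPM, but in no leaf library of Mo17, where it was found in stem only, at 0.115 RPM; stem was also the F1 tissue outside leaf in which it was found. Zmcirc007731, at chr6:10039225-10039446, lies within the span of Zmcirc007730. It was found in 3 leaf libraries of B73, 5 of F1 and 7 of Mo17. Its Mo17 leaf mean was 0.158 ± 0.189 RPM (SD, n = 11), with a log2 difference of 1.46 ± 0.41 (SE, limma adjusted p 0.00368). It passed the Mo17 filter through leaf, so this p-value too is an account and not support. The host mRNA in Mo17 leaf stood at 34.5, 74.9 and 431 units at the lowest, median and highest library, and in stem at 45.5. The 3 tables were normalized separately, so levels are set side by side here without a test between lines.

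Across the lines, 60 members were listed in both F1 and Mo17, and 62 in neither. A set of 12 members was found in leaf only in all 3 lines, and 6 met the full rule in each. Other circRNAs were not counted in this way, so whether these numbers are high cannot be told. Of those 12, Zmcirc008486 on Zm00001d029898 was found in 8, 7 and 5 leaf libraries of B73, F1 and Mo17, and Zmcirc009025 on Zm00001d042257 in 8, 5 and 5; both were picked from the list after their counts were seen.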

How the data were processed

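The authors deposited circRNA tables in RPM for B73, F1 and Mo17, an mRNA table in TPM for Mo17, and B73 and F1 mRNA tables with no unit in the header, used here as a signal and compared only within a table. The authors also deposited circRNA positions, a B73 to Mo17 list of paired identifiers, and a table of back-splice read counts for tassel. The submitters' processing notes name SAMtools, HISAT, StringTie, TopHat and B73 RefGen_v4; what each did is not stated there. Deposited starts matched 0-based junction starts for 2314 of 2539 tassel junctions, so starts are printed plus 1. RPM values did not resolve into whole reads, so no count test was run.

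Libraries of mRNA were scaled by size factors, the median over genes of the ratio to a gene's geometric mean, and genes that reached 1 in 3 libraries or more were tested on log2 of the value plus 1. CircRNAs above 0 in at least 5 libraries were tested on log2 of RPM plus the table's smallest value (0.0494 in F1, 0.0363 in Mo17). Both used limma 3.58.1 with a mean-variance trend in R 4.3.3, 11 leaf against 15 other libraries, Benjamini-Hochberg at 0.05, and the scripts were tested on simulated data. Named members were the 8 with the highest B73 leaf mean, the 3 largest called changes in F1 and in Mo17, and the 3 highest F1 means outside leaf; named hosts were the 6 with most members, those of the 8 members, the 3 largest rises and falls in B73, and 3 called in no line, taken by number of members and, where tied, by identifier. Members and lists were chosen with earlier results of these data known. Lists of photosynthesis, pigment, photorespiration and clock genes by symbol could not be used, since 0 of 250 hosts matched the reference table. Alternatives changed the pseudocount, filter, scaling, tissues and leaf libraries.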

Additional observations from a re-analysis of the deposited data

Results flagged for a closer look

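The 9 meristem and inflorescence libraries of each line were looked at for a library far from the others, in 47 sets of values, of which 11 had one. The limit used flags about 1 in 20 sets only where values are independent and normally spread. These sets share libraries and hold differing tissues, so 11 of 47 is not read as an excess. In Mo17 the members summed to 1.29 RPM in the 1 cm tassel, far above the other 8. For Zm00001d025129 the highest mRNA value was 0.0610 scaled units in the B73 1 cm tassel, 0.0283 in the F1 inflorescence and 0.0464 in the Mo17 1 cm tassel, all close to 0. In B73, Zm00001d018261 stood at 83.3 units in the 1 cm tassel and Zm00001d010614 at 985 units in the V1 shoot apical meristem. In F1, the V1 shoot apical meristem stood apart with 0.905 units for Zm00001d044099 and 0.792 for Zm00001d035212. Also in F1, the 2 mm tassel stood apart with 4.37 units for Zm00001d028471 and 5.25 for Zm00001d011454, and the inflorescence with 0.803 for Zm00001d048593. The part of these libraries in the leaf comparisons was not tested.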

How the results depend on the processing

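No paired analysis was possible because leaf and the other tissues share no tissue, so no library of a group has a partner in the other. Of 166 counts and shares recomputed, 143 stayed within 1.5 times of the value reported or, for shares, within their counting interval, and 23 did not. With mRNA values as deposited, all genes higher and lower numbered 3997 and 14640 in B73, 5080 and 28045 in F1, and 2548 and 18024 in Mo17, and hosts lower numbered 49, 58 and 30; quantile normalization gave 27 hosts lower in B73. Scaling circRNAs by the table total gave 967 higher and 1796 lower in F1 and 436 and 1073 in Mo17. With L and N averaged, 1866 and 1102 circRNAs were lower in F1 and Mo17. Without husk leaf, an alternative added after seeing the data, 1 Mo17 member was lower. The number of members was 1123 with 2 or more leaf libraries, 139 with 4 or more, 616 with at most 1 other library and 114 with 0.2 RPM as found; that limit also gave 8.20% and 17.6% found outside leaf in F1 and Mo17. Of 463 values of single members and hosts and of the correlation, 439 kept direction and side of the threshold, 14 passed it newly, 2 lost it and 8 turned sign. Those that turned were Zm00001d001913 in B73 (-0.91 as deposited, -0.38 by quantiles), Zm00001d001941 as deposited (-0.27 in F1, -0.53 in Mo17), Zm00001d013798 (-0.00085 as deposited in F1, 0.049 by quantiles in Mo17) and Zmcirc002237 in Mo17 (0.12 by table total, 0.0099 without husk leaf). The cause was not tested. With 56.9% of the members' B73 leaf values above 0 at 1 read, depth limits which circles are seen.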

Other observations

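The back-splice table of the 1 cm tassel, whose label does not tie it to a library above, held 2539 junctions with 13426 reads. No member was among them. Members were chosen to be at 0 in the B73 1 cm tassel, so this is close to fixed by the choice. On 39 hosts of members lay 94 junctions, with no share over other hosts to set beside them.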
